A study of Mus musculus with 6 samples.

Results

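Copper transport and metallothionein genes were followed in HCT116 cells, a long-established line from a human colorectal carcinoma, in a parental and an oxaliplatin-resistant form. The 10 genes were chosen by name for their roles, from the symbols of the count table: SLC31A1 and SLC31A2 (uptake), ATP7A and ATP7B (export), ATOX1, CCS and COX17 (chaperones), and MT1X, MT2A and MT1E (metallothioneins). They are 10 of the 31456 rows of that table, and all 10 passed the filter on low counts. Oxaliplatin is a platinum drug that damages DNA, and the stated aim of the study was to find genes behind resistance to it. Each form had 3 libraries of total RNA, numbered 1 to 3, with 20246878 to 32138423 counts per library. The labels give neither the route by which the resistant cells were obtained, nor whether they are a clone or were under drug at harvest, nor whether libraries of a form came from separate cultures. The p-values therefore measure the spread between these libraries, which may be technical.

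Copper is needed by a few enzymes and is toxic when free, so cells pass it from hand to hand. The membrane transporter CTR1, encoded by SLC31A1, brings in reduced copper. Chaperones then carry it to the secretory pathway, to cytosolic superoxide dismutase and to mitochondria, the ATPases ATP7A and ATP7B pump it into the Golgi or out of the cell, and the cysteine-rich metallothioneins bind surplus copper and zinc. Platinum drugs bind to several of these proteins, and for this reason the pathway has been studied in platinum resistance.

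The label was checked against marker genes. Of 5 markers listed for colorectal epithelium, CEACAM5 had no row in the count table. The other 4, EPCAM, KRT8, KRT18 and CDH1, had at least 859 counts in each library. The summed level of these 4 markers was 2280 to 2595 CPM (counts scaled to library size with TMM factors) in the parental and 2029 to 2131 CPM in resistant libraries. Its members differed in direction, since EPCAM, KRT8 and KRT18 fell and CDH1 rose from a mean of 42.9 to 50.1 CPM (edgeR adjusted p = 0.0014, 0.028, 0.0019 and 0.0025). Of 5 fibroblast markers 3 had at most 2 counts in any library (COL1A2, DCN, LUM), and COL3A1 had at most 11. The summed fibroblast level, nearly all of it COL1A1, was 22.4 to 25.9 CPM in parental and 38.7 to 44.2 CPM in resistant libraries. Among leukocyte markers PTPRC and CD3E had at most 2 counts in any library, and CD68 had a mean of 12.6 CPM in parental and 16.4 CPM in resistant libraries. The part of these marker levels in the results was not tested, and in bulk RNA fewer cells of a type and less RNA per cell cannot be told apart. Parental replicate 2 stood apart from its group, with a chi-square per gene of 9.05 and 8.66 against parental replicates 1 and 3, where those 2 differed by 1.80 and the resistant libraries among themselves by 2.38 to 3.81. Mitochondrially encoded mRNAs took 4.79% to 5.07% of parental and 6.33% to 6.95% of resistant counts.

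Of the 10 genes, the resistant cells had 6 higher and 1 lower at an adjusted p under 0.05 (edgeR's quasi-likelihood test, adjusted over all 16605 tested genes). Over all tested genes 53.8% passed that threshold, 27.3% higher and 26.5% lower, so a call by itself is common in this comparison. MT1X and ATOX1 rose most, SLC31A2 fell, and the rises of MT2A, ATP7A, CCS and SLC31A1 were smaller than 1.5-fold. ATP7B, COX17 and MT1E did not pass. Without parental replicate 2 the counts were again 6 higher and 1 lower. The median log2 fold change of the 10 was 0.21, beside 0.02 over all tested genes, and the median absolute log2 fold change was 0.33 beside 0.27. In 8 of the 10 genes the groups did not overlap, which held for 61.2% of all tested genes.

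**Figure D1:**
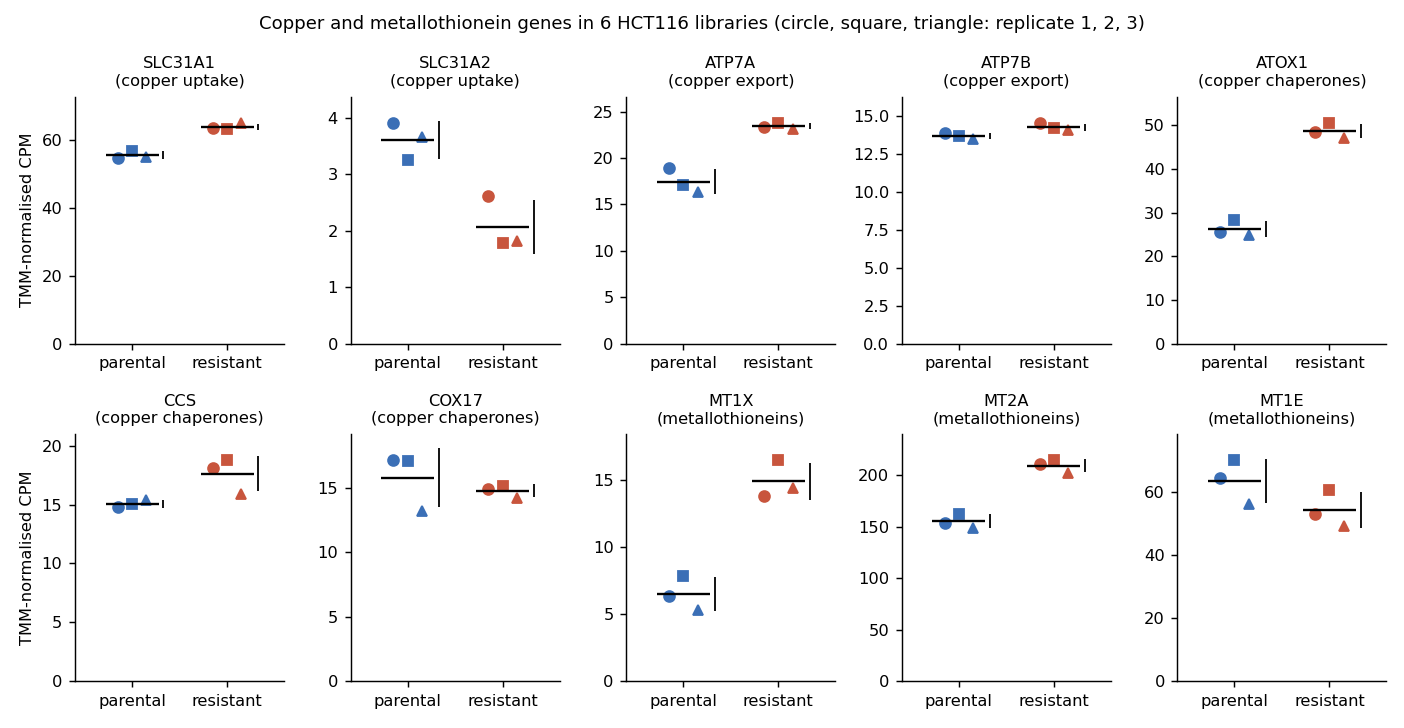
Level of each gene in TMM-normalised CPM (vertical axes, each from 0) in the parental (blue) and resistant (red) libraries; horizontal lines are group means, vertical lines mean ± SD over 3 libraries, and marker shapes give the replicate number. The groups are apart in 8 genes and overlap in COX17 and MT1E.

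**Figure D2:**
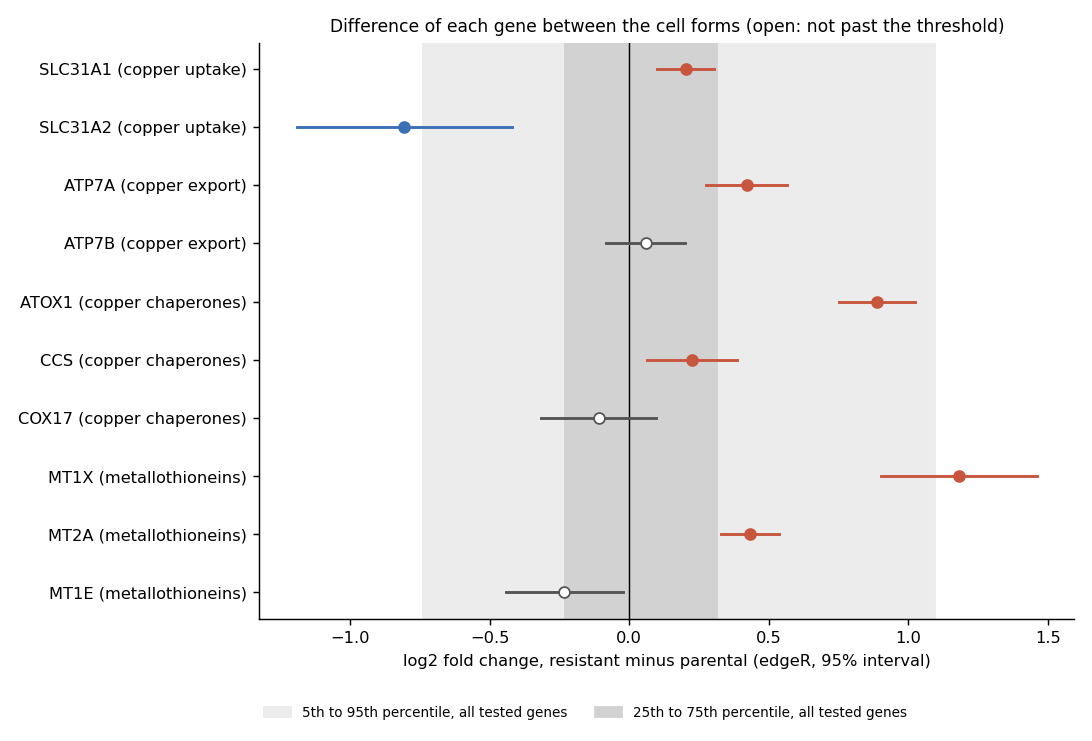
Log2 fold change of each gene, resistant minus parental, from edgeR with 95% intervals; grey bands hold the middle 50% and 90% of all 16605 tested genes, and open circles did not pass the threshold. MT1X lies beyond the upper band at 1.18 and SLC31A2 beyond the lower band at -0.81.

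The uptake genes went in opposite directions. SLC31A1 (ENSG00000136868.11), the gene of the high-affinity copper transporter CTR1, had 54.8, 57.0 and 55.1 CPM in parental replicates 1, 2 and 3 and 63.6, 63.5 and 65.1 CPM in resistant replicates 1, 2 and 3. Every resistant library lay above every parental library, and the rise was small next to most changes in these cells, larger in absolute log2 terms than 40.1% of tested genes. It was 1.15-fold, from 55.6 ± 1.23 to 64.1 ± 0.923 CPM (SD, n = 3), with a log2 fold change of 0.20 ± 0.05 (SE, with adjusted p = 0.0032 in edgeR).

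SLC31A2 (ENSG00000136867.11) encodes the related protein CTR2, found on late endosomes and lysosomes. Its level was 3.91, 3.25 and 3.67 CPM in parental and 2.61, 1.78 and 1.81 CPM in resistant libraries. All 3 resistant libraries were below all parental ones, with resistant replicate 1 the closest to them. The fall was 1.75-fold, from 3.61 ± 0.332 to 2.07 ± 0.472 CPM (SD, n = 3), with a log2 fold change of -0.81 ± 0.18 (SE, with adjusted p = 0.0023 in edgeR). This is the least sequenced of the 10 genes, resting on 104, 100 and 72 parental and 65, 52 and 47 resistant counts. Counting error alone would give an SD of 0.383 CPM in parental and 0.280 CPM in resistant libraries, and 3 counts, the floor of detection taken here, correspond to 0.0975 to 0.153 CPM. In limma on the authors' normalized expression with no filter the call was lost (adjusted p = 0.066). The log2 fold change there was -0.45 on the log2(value + 1) scale, which understates changes of low genes. With a filter of 0.5 in 3 libraries it was again -0.45 and the call was kept (limma adjusted p = 0.019). With 0.1 in place of 1 and that filter it was -0.64, also past the threshold (limma adjusted p = 0.021). Within a library, where scaling cancels, the ratio of SLC31A1 to SLC31A2 counts was 14.0, 17.5 and 15.03 in parental replicates and 24.3, 35.7 and 36.0 in resistant ones. Its mean was 2.06 times as high in the resistant libraries (32 ± 6.64 against 15.5 ± 1.82, SD, n = 3), and the groups did not overlap.

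Of the export genes only ATP7A passed. ATP7A (ENSG00000165240.20), the ATPase gene mutated in Menkes disease, had 18.9, 17.1 and 16.3 CPM in parental and 23.4, 23.8 and 23.1 CPM in resistant libraries. The resistant values lay close together and above the parental ones. The rise was 1.34-fold, from 17.4 ± 1.33 to 23.4 ± 0.324 CPM (SD, n = 3; log2 fold change 0.42 ± 0.07 SE, with adjusted p = 2.2e-04 in edgeR). On the authors' normalized expression the values were 2.63, 2.32 and 1.97 against 2.98, 3.60 and 2.93, and there the call was missed with limma adjusted p-values of 0.052, 0.053 and 0.14 across the 3 settings tried.

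ATP7B (ENSG00000123191.14), the ATPase gene mutated in Wilson disease, had 13.8, 13.7 and 13.4 CPM in parental and 14.5, 14.2 and 14.0 CPM in resistant libraries. These values did not overlap but differed by little. The log2 fold change was 0.06 ± 0.06 (SE, with adjusted p = 0.46 in edgeR), and its 95% interval, from -0.08 to 0.20, leaves room for a difference between 0.945-fold and 1.15-fold. Because normalization can move differences of this size, the ratio of ATP7A to ATP7B counts was also taken within each library, where scaling between libraries cancels. It was 1.37, 1.25 and 1.21 in the parental and 1.61, 1.68 and 1.65 in the resistant libraries. ATP7A thus gained on ATP7B in the counts of each resistant library. Per gene length the same ratio ran from 0.699 to 1.16 in the parental and from 1.04 to 1.38 in the resistant libraries, and there the groups overlapped.

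Among the chaperones the change was greatest for ATOX1. ATOX1 (ENSG00000177556.12) encodes the small cytosolic protein that hands copper to ATP7A and ATP7B. It had 25.6, 28.4 and 24.8 CPM in parental and 48.5, 50.5 and 47.2 CPM in resistant libraries. The distance between the groups was many times the spread within either. The rise was 1.85-fold, from 26.3 ± 1.87 to 48.7 ± 1.68 CPM (SD, n = 3), with a log2 fold change of 0.89 ± 0.06 (SE, with adjusted p = 3.1e-07 in edgeR). It exceeded, in absolute log2 terms, 89.3% of tested genes.

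CCS (ENSG00000173992.9), the chaperone gene for copper-zinc superoxide dismutase, had 14.8, 15.1 and 15.4 CPM in parental and 18.2, 18.8 and 16.0 CPM in resistant libraries. Resistant replicate 3 lay just above the parental libraries and the other 2 well above. The rise was 1.17-fold, from 15.1 ± 0.329 to 17.6 ± 1.48 CPM (SD, n = 3; log2 fold change 0.23 ± 0.07 SE, with adjusted p = 0.022 in edgeR). The call was lost in 4 of 16 alternatives, namely with DESeq2 (adjusted p = 0.13) and, in edgeR, when parental replicate 1 or either of resistant replicates 1 and 2 was left out (adjusted p = 0.075, 0.082 and 0.094), within a range of 0.0032 to 0.13 over all alternatives.

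COX17 (ENSG00000138495.6), which supplies copper for assembly of cytochrome c oxidase in mitochondria, had 17.1, 17.1 and 13.2 CPM in parental and 14.9, 15.2 and 14.2 CPM in resistant libraries. The groups overlapped, with parental replicate 3 the lowest of the 6. The log2 fold change was -0.11 ± 0.09 (SE, with adjusted p = 0.35 in edgeR, 95% interval -0.31 to 0.10). Without parental replicate 3 it was -0.22 (edgeR adjusted p = 0.027), so this library decided whether COX17 passed. The ratio of ATOX1 to COX17 counts within a library was 1.49, 1.66 and 1.88 in the parental and 3.25, 3.33 and 3.32 in the resistant libraries. Against CCS the ATOX1 ratio was 1.73, 1.88 and 1.61 in the parental and 2.67, 2.69 and 2.96 in the resistant libraries. ATOX1 therefore stood higher relative to both other chaperones in all resistant libraries, irrespective of the scaling.

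**Figure D3:**
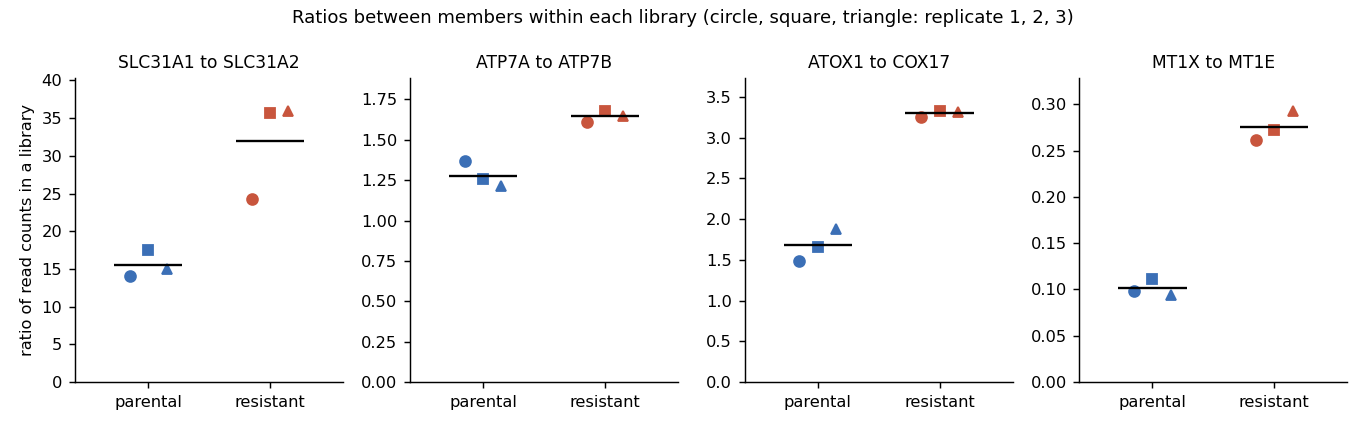
Ratios of read counts between pairs of genes within the same library (vertical axes from 0), parental in blue and resistant in red, with the group mean as a line. The SLC31A1 to SLC31A2, ATP7A to ATP7B, ATOX1 to COX17 and MT1X to MT1E ratios were each higher in all 3 resistant libraries than in any parental library.

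The metallothionein genes did not move as a unit. MT1X (ENSG00000187193.9), one of the metallothionein 1 genes, had 6.35, 7.84 and 5.29 CPM in parental and 13.9, 16.5 and 14.5 CPM in resistant libraries. The lowest resistant library was well clear of the highest parental one, replicate 2. The rise was 2.27-fold, from 6.49 ± 1.28 to 14.9 ± 1.38 CPM (SD, n = 3), with a log2 fold change of 1.18 ± 0.13 (SE, with adjusted p = 1.6e-05 in edgeR), and larger in absolute log2 terms than 93.7% of tested genes. In edgeR MT1X was the only member with a called change of at least 2-fold, and 5.58% of all tested genes rose that far. On the authors' normalized expression its rise was just under 2-fold. With a filter of 0.5 in 3 libraries the log2 fold change was 0.98 with 1 added (limma adjusted p = 0.0028). The factor from CPM to those values was 10.2, 11.3 and 11.2 in parental and 9.71, 9.18 and 9.04 in resistant libraries.

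MT2A (ENSG00000125148.7), the gene of the main metallothionein of most human cells, had 154, 163 and 149 CPM in parental and 211, 215 and 203 CPM in resistant libraries. Again the groups were apart. The rise was 1.35-fold, from 155 ± 6.84 to 209 ± 6.15 CPM (SD, n = 3; log2 fold change 0.43 ± 0.05 SE, with adjusted p = 1.3e-05 in edgeR). With limma on the authors' normalized expression plus 1 and no filter the call was lost, at a log2 fold change of 0.30 (adjusted p = 0.073).

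MT1E (ENSG00000169715.14) had 64.7, 70.2 and 56.2 CPM in parental and 53.1, 60.6 and 49.3 CPM in resistant libraries. The groups overlapped, since resistant replicate 2 exceeded parental replicate 3. The log2 fold change was -0.23 ± 0.09 (SE, with adjusted p = 0.059 in edgeR, 95% interval -0.44 to -0.02). The call turned on the libraries and settings: without parental replicate 3 or resistant replicate 2 the fall passed (edgeR adjusted p = 0.0084 and 0.014), as it did with DESeq2 (adjusted p = 0.030) and with no filter on low counts (edgeR adjusted p = 1.2e-04). The fall of MT1E also passed with a block for replicate number (edgeR adjusted p = 2.3e-04). Over all alternatives the adjusted p ranged from 1.2e-04 to 0.38.

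Metallothionein transcripts are close copies, so reads may have been divided among them with error. The summed level avoids such error among the genes summed, but not reads dropped or counted elsewhere. MT2A, MT1E, MT1X and MT1F together had 226, 242 and 211 CPM in parental and 279, 293 and 267 CPM in resistant libraries. The total was 1.24-fold higher, at 280 ± 12.6 against 227 ± 15.2 CPM (SD, n = 3), with no overlap between the groups. Within that total the make-up shifted. MT1X held 2.81%, 3.24% and 2.50% of the metallothionein counts in the parental libraries (Wilson 95% intervals 2.42% to 3.26%, 2.86% to 3.67% and 2.07% to 3.03%) and 4.96%, 5.63% and 5.40% in the resistant libraries (intervals 4.48% to 5.50%, 5.16% to 6.14% and 4.90% to 5.96%). MT1E held 28.6%, 29.0% and 26.6% in the parental and 19.0%, 20.7% and 18.4% in the resistant libraries. The remainder was nearly all MT2A, at 67.2% to 70.5% and then 73.3% to 75.8%. The intervals cover counting error only. The ratio of MT1X to MT1E counts was 0.0982, 0.112 and 0.0943 in the parental and 0.261, 0.272 and 0.293 in the resistant libraries. The counted split between these copies thus differed by group whatever the scaling. Whether error in dividing reads plays a part in these shares was not tested.

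MT1F, the remaining tested metallothionein gene, had 17 to 38 counts and did not pass (log2 fold change -0.19 ± 0.23 SE, with adjusted p = 0.52 in edgeR). On the authors' normalized expression it was lower in the resistant cells, with a log2 fold change of -0.48 on the log2(value + 1) scale and a limma adjusted p of 0.0058 with the filter. The pseudogene MT1JP had 4 to 11 counts, and MT1A, MT1B and MT1P1 had at most 1 count in any library, too few to test. Of the 17 further metallothionein symbols sought, these 5 had a row in the count table, and the others had none.

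Levels can be compared between genes only per gene length, and for this the authors' normalized expression, taken here as FPKM, was used. In the parental cells the order was MT2A (1765 ± 141 FPKM), MT1E (184 ± 23.2), ATOX1 (103 ± 14.8), MT1X (70.9 ± 15.4), COX17 (47.5 ± 5.87), CCS (20.6 ± 0.965) and SLC31A1 (12.8 ± 0.200; SD, n = 3). SLC31A2, ATP7B and ATP7A closed the order at 2.65 ± 0.248, 2.53 ± 0.280 and 2.31 ± 0.330 FPKM, and these 3 did not differ beyond their spread. On these values binding proteins and chaperones thus had more transcript than the transporters, and the export ATPases had the least along with SLC31A2. In the resistant cells MT2A again led, at 2163 ± 69.5 FPKM. ATOX1 (191 ± 13.5 FPKM), MT1E (161 ± 17.6 FPKM) and MT1X (139 ± 11.0 FPKM) followed, each overlapping its neighbour in that order. At the low end ATP7A (3.17 ± 0.373 FPKM), ATP7B (2.64 ± 0.163 FPKM) and SLC31A2 (1.67 ± 0.285 FPKM) no longer overlapped. The factor between these values and CPM varied between libraries within a gene, by 1.05-fold for COX17 up to 1.33-fold for SLC31A2. Between genes it differed more, at 10.2 to 11.8 for MT2A, 9.04 to 11.3 for MT1X and 2.74 to 3.12 for MT1E. The MT1X to MT1E ratio in resistant libraries was thus 0.261 to 0.293 in counts and 0.812 to 0.922 per gene length. The lengths behind these factors were not checked, so the order among genes rests on the authors' values.

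**Figure D4:**
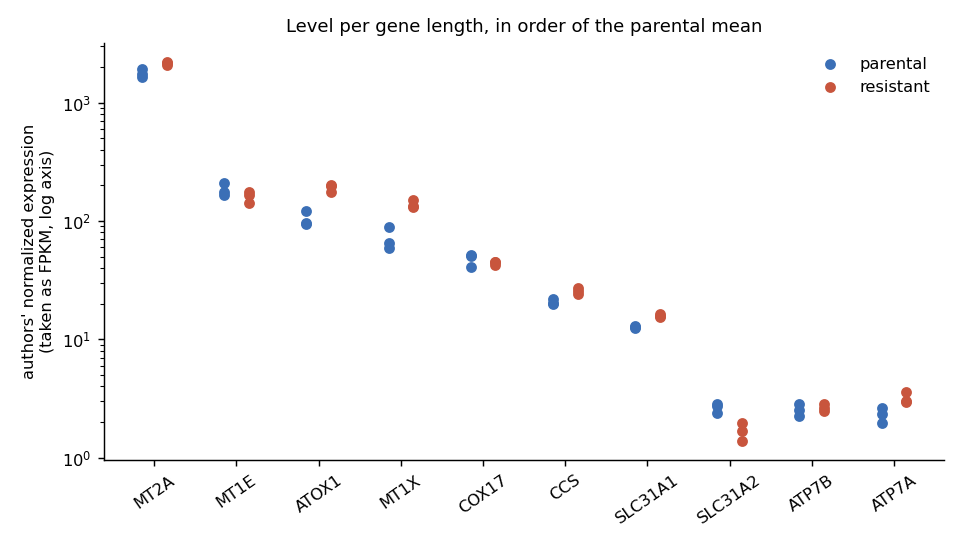
Level per gene length on a log axis (authors' normalized expression, taken as FPKM) in each library, genes ordered by their parental mean, parental in blue and resistant in red. MT2A lies highest in all 6 libraries, and ATP7A, ATP7B and SLC31A2 lie lowest.

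By the smallest root mean square difference in centred log2 CPM over the 6 libraries, among 11625 genes with a mean of at least 5 CPM, the pattern closest to MT1X was that of ABCB6 (difference 0.0901) and then CHAC1 (0.0974). For ATOX1 the closest were PPP6R2 (0.0269) and PXDN (0.0272), for SLC31A2 NAT8L (0.0973) and EIF4E3 (0.0975), and for MT2A HOXB6 (0.0060). ATP7A lay closest to RBM20 (0.0184), SLC31A1 to CRYM (0.0139), ATP7B to RER1 (0.0106), CCS to CCND3 (0.0302), COX17 to ZNF23 (0.0457) and MT1E to ERCC2 (0.0305). With 6 libraries in 2 groups such a match rests largely on the group difference. The log2 fold change was 1.18 for MT1X, 1.16 for ABCB6 and 1.17 for CHAC1. Shared regulation was not tested.

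Beyond the 10 genes, 135 further symbols of copper, zinc and platinum handling in 9 lists were read from the same fit. Of these 102 were tested, 24 were higher and 28 lower, together 51.0% beside 53.8% of all tested genes, with a median log2 fold change of 0.03. Without parental replicate 2 the counts were 25 higher and 29 lower. The counts of each list below stand beside 27.3% higher and 26.5% lower over all tested genes.

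**Figure D5:**
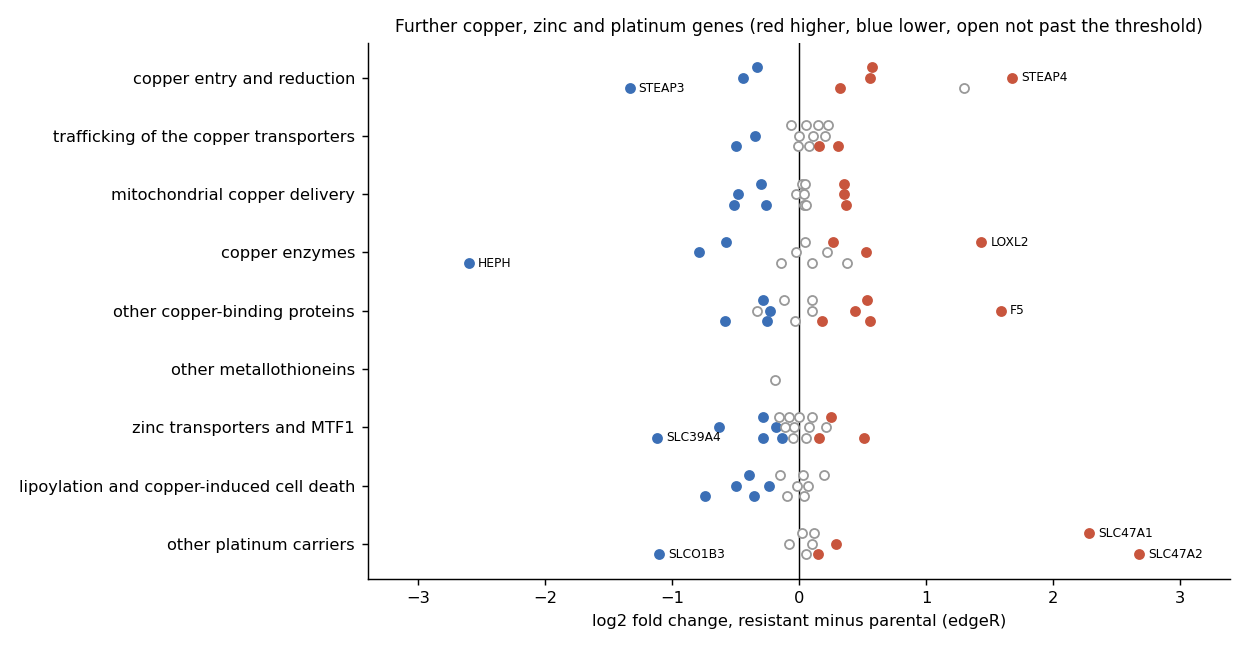
Log2 fold change of the tested genes of the 9 further lists, resistant minus parental (horizontal axis, edgeR), 1 point per gene with vertical offsets for legibility; red points were higher, blue lower, and open circles did not pass. Called genes with a change of at least 2-fold are named. The lipoylation list, with 12 tested genes, has no red point, where 27.3% of all tested genes were higher. HEPH, F5, STEAP4, SLC47A1 and SLC47A2 rest on few counts in 1 of the groups. HEPH passed the filter on low counts through the parental libraries alone, and F5, SLC47A1 and SLC47A2 through the resistant ones alone.

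Copper must be reduced before CTR1 can carry it, and the list of entry and reduction genes moved in both directions, with 4 of 8 tested members higher, 3 lower and 1 not past. STEAP3, a metalloreductase gene, fell 2.52-fold from 51.2 ± 5.92 to 20.4 ± 1.89 CPM (edgeR adjusted p = 5.9e-07). STEAP1, whose product is of the same family, rose 1.49-fold (edgeR adjusted p = 1.4e-05), and STEAP4 rose 3.20-fold on 9 to 41 counts (edgeR adjusted p = 7.2e-05). CYBRD1, a ferrireductase gene, fell 1.36-fold from 44.7 ± 0.969 to 32.8 ± 0.671 CPM (SD, n = 3; edgeR adjusted p = 2.1e-05).

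Of 13 tested genes listed for trafficking of the copper transporters, 2 were higher, 2 lower and 9 not past. VPS35L, a subunit of the retriever complex of endosomal recycling, fell 1.41-fold (edgeR adjusted p = 1.9e-05). ATP6AP1, an accessory subunit of the vacuolar proton pump, fell 1.27-fold (edgeR adjusted p = 2.9e-04), and SLC33A1, an acetyl-CoA transporter gene, rose 1.24-fold (edgeR adjusted p = 0.0031). COMMD1, which acts in the same recycling pathway and binds ATP7B, had 8.46 ± 1.41 and 9.18 ± 0.231 CPM (edgeR adjusted p = 0.46, named after its values were seen).

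In mitochondrial copper delivery 3 of 13 tested members were higher, 4 lower and 6 not past. SLC25A3, the mitochondrial phosphate and copper carrier gene, fell 1.43-fold from 613 ± 34.9 to 430 ± 6.95 CPM (SD, n = 3; edgeR adjusted p = 4.0e-06). SCO1, which passes copper from COX17 to cytochrome c oxidase, fell 1.23-fold (edgeR adjusted p = 0.0015). COA4 fell 1.40-fold (edgeR adjusted p = 1.3e-05) and COA5 rose 1.29-fold (edgeR adjusted p = 0.0018), both of them cytochrome c oxidase assembly factor genes. The median of the list was 0.04 on the log2 scale.

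The copper enzymes, to which these routes lead, had 3 of 12 tested members higher, 3 lower and 6 not past. SOD1, the enzyme loaded by CCS, had 241, 254 and 249 CPM in parental and 244, 244 and 242 CPM in resistant libraries. SOD1 thus did not pass (log2 fold change -0.03 ± 0.04 SE, with adjusted p = 0.62 in edgeR), and its sign turned with library sizes alone (0.07) and on the authors' normalized expression. LOXL2, a lysyl oxidase-like enzyme gene, rose 2.71-fold from 34.4 ± 3.17 to 93.5 ± 4.75 CPM (edgeR adjusted p = 9.6e-09). PAM, the peptide amidating enzyme gene, fell 1.73-fold (edgeR adjusted p = 1.7e-08). MT-CO1, the mitochondrially encoded catalytic subunit of cytochrome c oxidase, rose 1.44-fold (edgeR adjusted p = 1.8e-05), alongside the larger share of mitochondrial mRNA given above. With limma on the authors' normalized expression plus 1 and no filter this call was lost (log2 fold change 0.60, adjusted p = 0.12). Whether that share plays a part was not tested. HEPH, a copper ferroxidase gene, had 22, 19 and 8 counts in the parental and 2, 3 and 3 in the resistant libraries (edgeR adjusted p = 3.5e-04). HEPH passed the filter on low counts through the parental libraries alone, so its direction was fixed in advance and its p-value is no support for a fall.

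Among other copper-binding proteins 5 of 14 tested were higher, 4 lower and 5 not past. PRNP, the prion protein gene, rose 1.48-fold (edgeR adjusted p = 7.9e-07), and the autophagy kinase gene ULK1 rose 1.45-fold (edgeR adjusted p = 2.5e-05). CUTC, a copper-binding protein gene, fell 1.50-fold (edgeR adjusted p = 3.5e-06). F5, among the 5 higher, had 6 to 37 counts (edgeR adjusted p = 0.0022, named after its values were seen). It passed the filter on low counts through the resistant libraries alone, which fixed its direction in advance. The p-value of F5 and its place among the 5 are therefore no support for a rise.

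Metallothionein genes are switched on by the zinc sensor MTF1, which also acts on SLC30A1, the zinc exporter gene. MTF1 had 52.5, 52.5 and 51.8 CPM in parental and 46.1, 50.3 and 46.1 CPM in resistant libraries. Its fall was 1.10-fold (log2 fold change -0.14 ± 0.05 SE, with adjusted p = 0.046 in edgeR), and the call was lost in 10 of 16 alternatives, with adjusted p-values up to 0.68. SLC30A1 had 23.4, 18.2 and 24.7 CPM in parental and 26.0, 23.2 and 27.3 CPM in resistant libraries. The groups overlapped and parental replicate 2 was the lowest (log2 fold change 0.21 ± 0.11 SE, with adjusted p = 0.13 in edgeR). Without parental replicate 2 the log2 fold change of SLC30A1 was 0.08. SLC30A1 passed as higher in 3 of 16 alternatives, among them library sizes alone and no filter (edgeR adjusted p = 0.0497 and 0.021), within a range of 0.0053 to 0.36 over all alternatives. Of 19 tested zinc genes 3 were higher, 6 lower and 10 not past. SLC39A4, a zinc importer gene, fell 2.17-fold from 31.1 ± 2.80 to 14.4 ± 0.358 CPM (edgeR adjusted p = 1.6e-07), and the importer gene SLC39A10 fell 1.55-fold (edgeR adjusted p = 1.6e-06). SLC30A4, a zinc exporter gene, rose 1.42-fold (edgeR adjusted p = 5.4e-04), a call lost with limma on the authors' normalized expression plus 1 and no filter (adjusted p = 0.081).

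The lipoylation list holds genes linked to mitochondrial lipoic acid metabolism and copper-induced cell death. None of its 12 tested members was higher, 5 were lower and 7 did not pass. Together 41.7% were called, beside 53.8% of all tested genes (27.3% higher and 26.5% lower). DLAT, the lipoylated subunit of pyruvate dehydrogenase, fell 1.67-fold from 171 ± 8.66 to 103 ± 7.00 CPM (SD, n = 3; edgeR adjusted p = 8.0e-07), and PDHB fell 1.28-fold (edgeR adjusted p = 2.0e-04). FDX1, the ferredoxin gene of this pathway, had 28.3 ± 3.31 and 29.6 ± 2.86 CPM (edgeR adjusted p = 0.56, named after its values were seen). The median log2 fold change of its members was -0.12, beside 0.02 over all tested genes.

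Of the other carriers linked to platinum drugs 4 of 10 tested were higher, 1 lower and 5 not past. LRRC8D, a subunit of the volume-regulated anion channel, rose 1.23-fold from 24.7 ± 1.07 to 30.2 ± 1.03 CPM (SD, n = 3; edgeR adjusted p = 0.0013). SLC47A1, a MATE family exporter gene, had 7, 4 and 4 counts in the parental and 27, 33 and 18 in the resistant libraries (edgeR adjusted p = 2.2e-04). Its relative SLC47A2 had 5, 0 and 3 counts against 14, 21 and 21 (edgeR adjusted p = 0.0017). Parental counts of both were near the floor of 3 counts, and no library exceeded 1.13 CPM. Both passed the filter on low counts through the resistant libraries alone, which fixed their direction in advance. Their p-values and their place among the 4 higher are therefore no support for a rise. With limma on the authors' normalized expression plus 1 and no filter the calls of LRRC8D and SLC47A1 were lost (adjusted p = 0.064 and 0.072). SLCO1B3, an organic anion transporter gene, fell 2.15-fold from 44.7 ± 5.91 to 20.8 ± 0.783 CPM (SD, n = 3; edgeR adjusted p = 1.8e-06), and on the authors' normalized expression that call was missed (limma adjusted p = 0.056, 0.058 and 0.13). SLC22A2, the organic cation transporter gene, had no row under that symbol in the count table.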

How the data were processed

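Per the labels' protocols, total RNA (RNeasy) was turned into sequencing libraries by a SMARTER mRNA kit. The authors deposited whole-number read counts per gene without normalization. A second deposited table, whose header names no unit, was taken from its values as FPKM computed by the authors. For aligner, counter, annotation release and strandedness, versions and names were not given in the sources used here. Labels name mouse as organism, and the submitters' processing notes name GRCm38 and mm10, but the tables carry human Ensembl identifiers. Mouse reference files went unused, so sequences and coordinates are left out.

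Columns were tied to samples by the descriptions and groups by the titles. Counts were fitted with edgeR 4.0.16 (R 4.3.3; TMM, filterByExpr, robust quasi-likelihood, two-sided), with Benjamini-Hochberg adjustment over 16605 genes and a threshold of 0.05. The standard error is the log2 fold change over the square root of F. The 840 rows with no Ensembl identifier (0.857% to 0.955% of counts; 503 tested) stayed in the fit. Alternatives were DESeq2 1.42.0, other scalings and filters, a replicate block, limma 3.58.1 on log2 FPKM (pseudocounts 1 and 0.1, filter of 0.5 in 3 libraries) and each library left out. The fit was tested on simulated data. With 3 against 3 libraries an exact permutation p cannot go below 0.10, so none was computed.

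The members and lists were chosen with earlier results of these data known. All 10 members are named, and from each further list up to 4 genes with the smallest adjusted p, plus SOD1, MTF1, SLC30A1 and SLC22A2. Some are not described. Pattern neighbours are the 2 nearest genes with a mean of at least 5 CPM. A further leukocyte marker is not reported here.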

Additional observations from a re-analysis of the deposited data

How the results depend on the processing

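Over 16 alternatives per gene, 145 values for the 10 copper and metallothionein genes kept direction and side of the threshold, 9 lost and 6 gained a call, and none changed sign. SLC31A1, ATOX1 and MT1X kept their calls in all 16, with log2 fold changes of 0.18 to 0.31, 0.84 to 0.98 and 0.98 to 1.35. The number of members higher, 6 in the fit reported, was 5 with DESeq2 and both filtered FPKM fits, 4 with limma on FPKM plus 1 and no filter, and 5 to 6 with a library left out. The number of members lower, 1 in the fit reported, was 2 with DESeq2, with no filter on low counts and with the replicate block, 0 with limma on FPKM plus 1 and no filter, and 1 to 3 with a library left out. Library sizes alone moved the all-gene median log2 fold change from 0.02 to 0.11 and the higher share of calls from 50.8% to 65.3%. There the further lists had 34 higher and 23 lower, and SOD1 was at 0.068 on the log2 scale. SOD1 was also positive, at 0.025 on FPKM with the filter (pseudocounts 1 and 0.1) and 0.025 without it. The cause was not tested. Leaving out the rows without an identifier, an alternative chosen after seeing the data, changed no call. Nothing in the labels pairs same-numbered libraries of the 2 groups, so the numbers were not taken as pairs. Deviations of same-numbered libraries correlated at 0.07, 0.14 and 0.01, and those of differently numbered libraries at -0.15 to 0.09. The replicate block called 9973 genes against 8933, passed MT1E as lower and SLC30A1 as higher (edgeR adjusted p = 2.3e-04 and 0.0053) and gave 27 higher and 32 lower in the further lists. Counts of 47 to 104 limit the precision for SLC31A2.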
